A study of Mus musculus with 4 samples.

Results

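The Klf and Sox families of transcription factors were examined in bronchoalveolar stem cells (BASCs) depleted of c-Myc and in control BASCs. All probe sets whose annotated gene symbol is Klf or Sox followed by a number were taken, which gave 97 of 45037 probe sets, 46 for 16 Klf genes and 51 for 19 Sox genes (35 of 18193 genes). All cells came from lungs of ICR mice, 4 to 6 weeks old, by a sort that kept CD34+ and Sca-1+ cells and removed those with CD31 or CD45. They were plated on irradiated mouse embryonic fibroblasts. The study describes later passages both on such feeder cells and on collagen-coated dishes, so feeder cells may have been present in the arrayed cultures. For the depletion the labels describe a lentiviral short hairpin RNA against c-Myc, puromycin selection and stable lines, in a text that stands on all 4 samples and does not say at which step the 2 Myc-depleted samples were taken. The study infected BASCs with a control lentivirus in its growth assays. The 2 control samples on the arrays are called control in the labels and wild type in the study. A control vector is not named for them, so effects of infection and selection cannot be told apart from those of depletion. Whether samples of a group were separate cultures, and which hairpin they carried, is not given in the labels. The p-values cover the variation among these 4 arrays, and that variation may be only technical. Each sample was read on 1 Affymetrix mouse genome array, on which 1 or more probe sets read a gene. Values are log2 expression values, each of a single probe set. In RNA of a whole culture, fewer cells of a type and less RNA per cell cannot be told apart. Probe sets differ in brightness, so differences were taken only between arrays within a probe set, and a level near or far from the testing limit does not rank genes by expression.

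Klf proteins bind CACCC and GC-rich DNA elements through zinc fingers at their carboxyl end. One branch of the family mostly activates genes, another represses with the corepressor CtBP, and the last recruits the corepressor Sin3a. Sox proteins bind and bend DNA through an HMG box, and are grouped by similarity into classes named by letters. Klf4 and Sox2 are, with Oct4 and c-Myc, the factors used to reprogram fibroblasts to pluripotency. In the lung, Sox2 marks the conducting airways and Sox9 the growing distal tips of the embryonic epithelium.

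Myc was read by 1 probe set. Its log2 value was 8.35 and 8.50 on the Myc-depleted arrays, against 9.21 and 9.69 on the control arrays. Both Myc-depleted arrays thus lay below both controls, and the difference was -1.02 (SE 0.21). Turned back from log2, this difference of the log2 means is a level of 49.2% of control (unadjusted p = 0.00765, adjusted p = 0.363 in limma).

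The labelled cell type was set against marker genes, read here as RNA. The study stained the proteins SP-C and CCA, those of Sftpc and Scgb1a1, and found both in most colonies after several passages. It also stated, without showing data, that mRNA of SP-C, CCA and Aquaporin did not change on its arrays. Of 12 lung epithelial genes, 9 had a mean over the arrays under the limit used for testing (log2 5.08, the 40th percentile of all probe sets), among them the surfactant gene Sftpc, the club cell gene Scgb1a1 and the lung lineage factor Nkx2-1. The summed log2 level of the 12 genes was 59.8 to 60.2 on the Myc-depleted arrays and 58.2 to 59.4 on the control arrays. This summed difference rests mostly on Epcam, which differed by 0.65, and on Sftpc, under the limit, which differed by 0.37. Of the endothelial genes 7 of 8 were also under the limit, and of the leukocyte genes 2 of 5, Ptprc and Cd68. The leukocyte genes Csf1r, Cd3e and Lyz2 were above it, and Lyz2, the macrophage lysozyme, read 5.71 and 7.71 on the Myc-depleted arrays, against 5.27 and 5.88 on the control arrays. The summed log2 level of the 5 leukocyte genes was 29.9 to 32.0 on the Myc-depleted arrays and 29.7 to 30.2 on the control arrays. Of the fibroblast and mesenchymal genes 10 of 11 were above the limit, with Col1a2, a chain of type I collagen, between 14.27 and 14.56 on the 4 arrays. Their summed log2 level was 113 to 116 on the Myc-depleted arrays and 113 to 115 on the control arrays. Single markers differed between the groups in both directions, by 0.65 for the epithelial gene Epcam (unadjusted p = 0.0173 in limma), 1.23 for the mesenchymal receptor Pdgfra (unadjusted p = 0.00162) and -1.26 for the surface gene Thy1 (unadjusted p = 0.000405), and their part in the values below was not tested. The Myc-depleted mean of Thy1, 4.71, was under the limit, so Thy1 was tested only through its level on the control arrays. The part of feeder fibroblasts in the marker levels was not tested. The arrays also differed in how evenly the poly-A spike-in RNAs were labelled along their length. The 3′ signal less the 5′ signal, called the spike-in difference below, was 3.62 and 2.05 on Myc-depleted 1 and 2, against 2.15 and 3.24 on control 1 and 2. For the Gapdh transcript the same quantity was 0.87 and -0.11 on the Myc-depleted arrays, against -0.13 and 0.31 on the control arrays. Within the pairs of like spike-in value, the Myc difference was -1.33 for Myc-depleted 1 minus control 2 and -0.71 for Myc-depleted 2 minus control 1.

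Of the 97 probe sets, 57 passed the limit and were tested, 35 of 14 Klf genes and 22 of 9 Sox genes. The difference passed the adjusted threshold in limma for 0 of the 57, as for 0 of all 27022 probe sets tested (0%). An unadjusted p under 0.05 was reached by 10 members, or 17.5%, beside 10.1% of all probe sets. Of these, 6 were higher in Myc-depleted cells (5.63% of all probe sets) and 4 lower (4.46%), and they belong to Klf2, Klf5, Klf6, Klf12, Klf15, Sox5 and Sox12. Among them, Klf12, Klf15 and the dimmer tested probe set of Sox12 had a group mean under the limit. These were tested only through the group where they read higher. The groups did not overlap for 24 members, or 42.1%, beside 41.1% of all probe sets. Of these 13 were higher (22.5% of all) and 11 lower (18.5%). A difference over 2-fold was found for 2 members, Klf5 and Klf12, beside 1.38% of all probe sets. Both were lower (0.655% of all probe sets), and 0 were over 2-fold higher (0.729%). When the spike-in difference was added to the fit as a covariate, which left 1 residual degree of freedom, 10 of the 57 passed the adjusted threshold, beside 10.4% of all probe sets. Klf12, Klf15 and that probe set of Sox12 are among these 10 too.

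**Figure D1:**
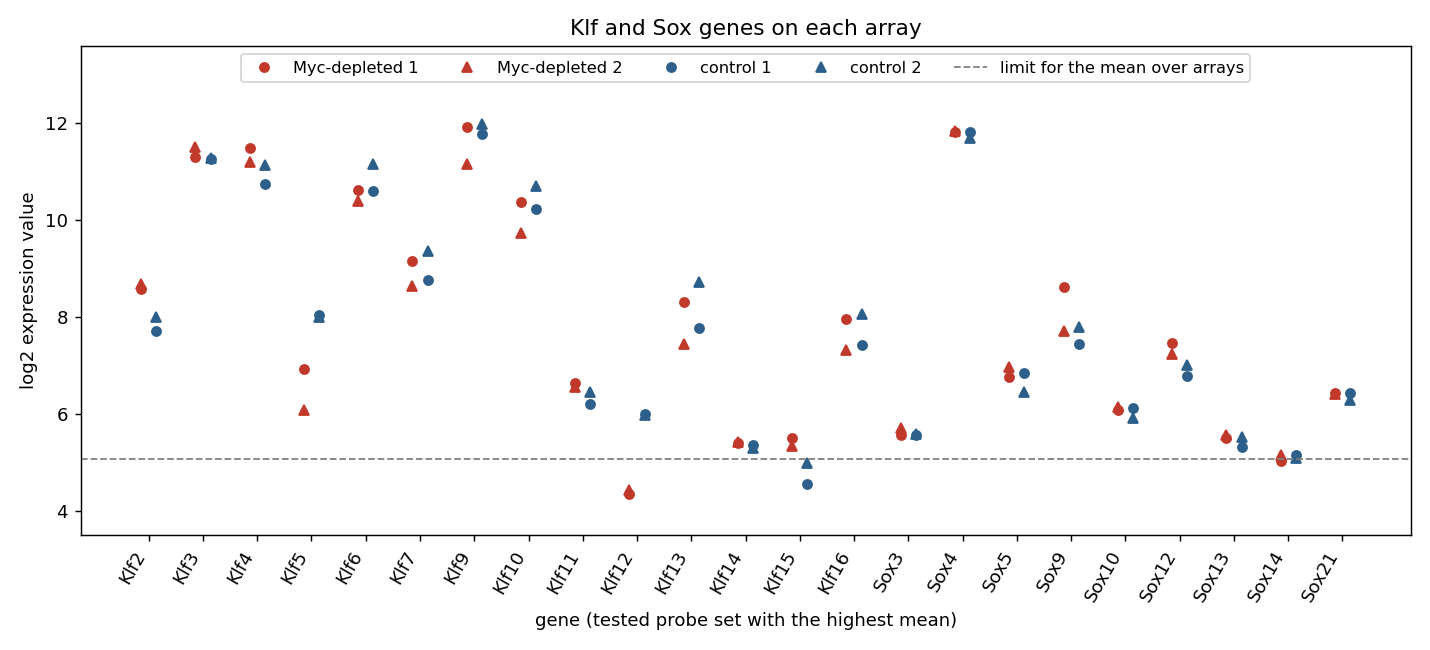
Log2 expression value (y axis) of the 23 tested Klf and Sox genes (x axis) on each of the 4 arrays, each gene by its tested probe set with the highest mean, Myc-depleted in red to the left of control in blue. The dashed line is the limit for the mean over arrays, log2 5.08. Klf12 lies at 4.35 and 4.43 in Myc-depleted cells, against 6.00 and 5.97 in control cells.

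Klf12, a repressor that binds CtBP, had the smallest p of the 57. Its tested probe set read 4.35 and 4.43 on the Myc-depleted arrays, against 6.00 and 5.97 on the control arrays. The difference was -1.60 (SE 0.11), a 3.03-fold lower level (unadjusted p = 0.000136, adjusted p = 0.177 in limma, and adjusted p = 0.00245 with the spike-in covariate). The arrays of each group lay within 0.08 of each other. The Myc-depleted mean of 4.39 was under the limit. The probe set was thus tested only through its level on the control arrays, and the size of the difference is uncertain. The other 4 probe sets of Klf12 were under the limit and not tested. One of them read 4.05 and 4.10 in Myc-depleted cells, against 4.80 and 5.24 in control cells, a difference of -0.94. The other 3 differed by -0.26, 0.17 and 0.12.

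Klf3, the other CtBP-binding member among the Klf genes taken here, is a repressor that acts in red blood cell and fat cell formation. Its 6 tested probe sets differed by -0.24 to 0.12, 2 above and 4 below 0, and the smallest unadjusted p was 0.405. The brightest of them read 11.30 and 11.50 in Myc-depleted cells, against 11.27 and 11.29 in control cells.

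The activating branch held members on both sides. Klf2, a factor of endothelial and T cell quiescence that also belongs to the network of naive pluripotency, was read by 1 probe set. It had 8.58 and 8.67 in Myc-depleted cells, against 7.71 and 8.01 in control cells. Both Myc-depleted arrays lay above both controls. The difference was 0.77 (SE 0.16), a 1.71-fold higher level (unadjusted p = 0.00777, adjusted p = 0.364 in limma, and adjusted p = 0.0246 with the spike-in covariate). It was 0.57 for Myc-depleted 1 minus control 2 and 0.97 for Myc-depleted 2 minus control 1.

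Klf4, the reprogramming factor, was read by 2 probe sets. The first read 11.50 and 11.21 in Myc-depleted cells, against 10.75 and 11.14 in control cells, a difference of 0.40 (SE 0.20, adjusted p = 0.602 in limma), and of 0.21 without control replicate 1. Although the groups did not overlap, Myc-depleted 2 was only 0.06 above control 2. On the second probe set they overlapped, at 10.55 and 10.04 in Myc-depleted cells, against 9.62 and 10.25 in control cells, with a difference of 0.36 (SE 0.30, adjusted p = 0.771 in limma). It was 0.05 without control replicate 1 and 0.11 without Myc-depleted replicate 1.

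Klf5, which promotes proliferation in many epithelia and in smooth muscle, was the second member over 2-fold different. Its brightest probe set read 6.938 and 6.091 in Myc-depleted cells, against 8.040 and 7.997 in control cells. The controls were thus close together and the Myc-depleted arrays were not. The difference was -1.50 (SE 0.32), a 2.84-fold lower level (unadjusted p = 0.00903, adjusted p = 0.376 in limma, and adjusted p = 0.0101 with the spike-in covariate). An ordinary ANOVA, the test named in the methods of the study, gave it an unadjusted p of 0.0711. A second probe set read 5.09 and 5.20 in Myc-depleted cells, against 5.61 and 5.59 in control cells, a difference of -0.45 (SE 0.12, unadjusted p = 0.0167, adjusted p = 0.396 in limma). The dimmest differed by -0.17, and by -0.10 without control replicate 2. In all 3 both Myc-depleted arrays lay below both controls, and the last 2 had values close to the limit.

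Klf6, an immediate early factor in many cell types, was read by 5 tested probe sets, and all 5 had a negative difference, between -0.92 and -0.17. The groups did not overlap for 3 of them. The one with the smallest p read 9.97 and 10.48 in Myc-depleted cells, against 10.81 and 10.89 in control cells, a difference of -0.63 (SE 0.21, unadjusted p = 0.0407, adjusted p = 0.474 in limma). It was -0.88 without Myc-depleted replicate 2 and -0.37 without Myc-depleted replicate 1. The widest difference, -0.92, rested on Myc-depleted 1, with 6.48 and 8.19 in Myc-depleted cells, against 8.39 and 8.13 in control cells.

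Klf7, which acts in neurons and in adipocyte precursors, gave 4 negative differences on its 4 probe sets, from -0.51 to -0.17, with a smallest unadjusted p of 0.0977. Klf1, the erythroid factor, stayed between 4.93 and 5.14 on the 4 arrays and was not tested. Over the activating branch 12 of 15 tested probe sets lay below 0, with a median of -0.37, but these probe sets come from only 5 genes.

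**Figure D2:**
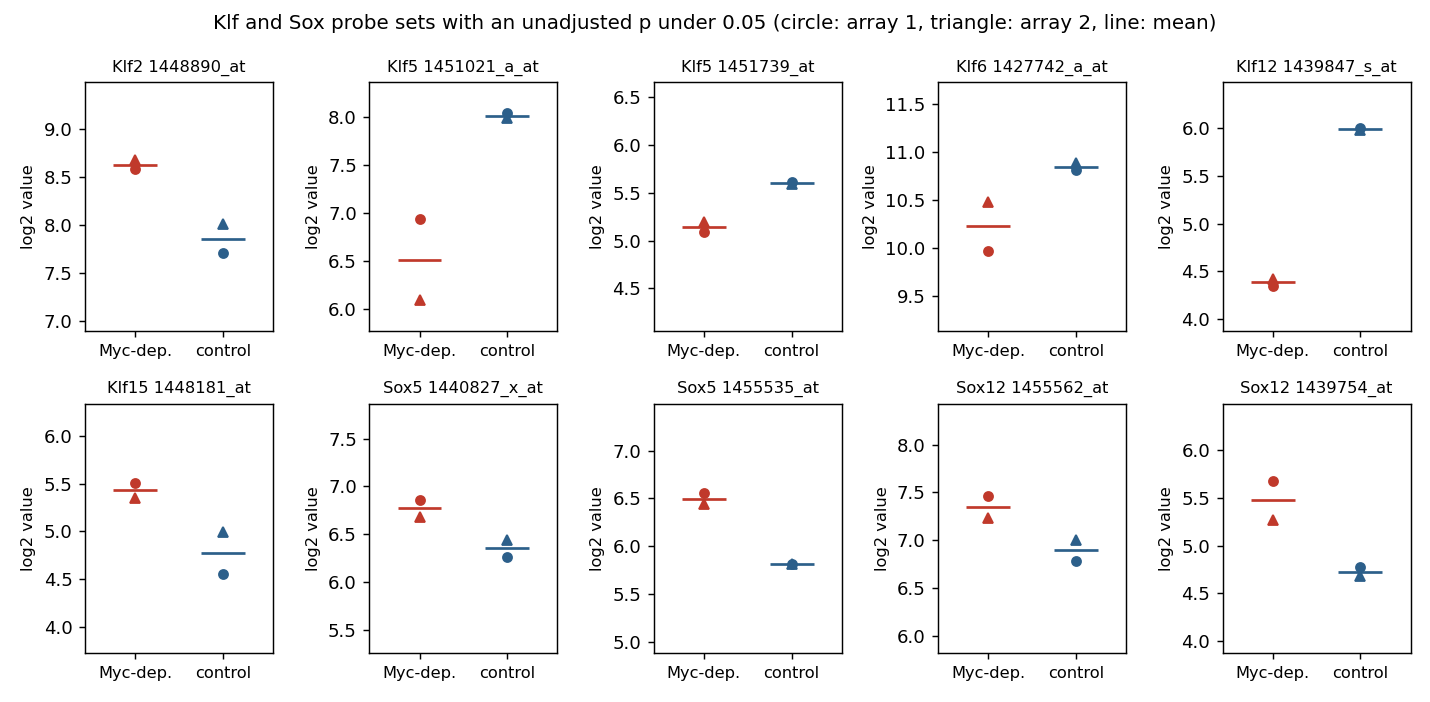
Log2 expression values of the 10 member probe sets with an unadjusted p under 0.05 in limma, 1 panel each, Myc-depleted in red left of control in blue, with the mean of each group as a line. The panels were chosen by p on these same arrays, a choice that favours groups without overlap. The groups do not overlap in any panel, as with Klf2 at 8.58 and 8.67 in Myc-depleted cells, against 7.71 and 8.01 in control cells.

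Among members that bind Sin3a, 10 of 12 tested probe sets lay below 0 (median -0.29), and 0 had an unadjusted p under 0.05. Klf9, induced by glucocorticoid and thyroid hormone, had 6 tested probe sets with differences between -0.34 and -0.16. The brightest read 11.94 and 11.16 in Myc-depleted cells, against 11.77 and 11.99 in control cells, and the groups overlapped. Klf10, induced by TGF-beta, read 10.37 and 9.75 in Myc-depleted cells, against 10.24 and 10.71 in control cells. Its difference of -0.42 (SE 0.30) had an adjusted p of 0.717 in limma, and of 0.0380 with the spike-in covariate. Klf13 differed by -0.36 and -0.52 on its 2 tested probe sets, and the second had an adjusted p of 0.735 in limma and of 0.0305 with the covariate. Klf16 differed by -0.11. Klf11, a relative of Klf10, differed by 0.26 and the imprinted gene Klf14 by 0.07, with adjusted p of 0.637 and 0.895 in limma.

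Klf15, a glucocorticoid-induced factor of glucose and amino acid metabolism that also acts in fat cell formation, was read by 1 probe set. It had 5.51 and 5.35 in Myc-depleted cells, against 4.55 and 4.99 in control cells. The Myc-depleted arrays were higher, by 0.66 (SE 0.20) on average (unadjusted p = 0.0296, adjusted p = 0.446 in limma, and adjusted p = 0.0353 with the spike-in covariate). The difference was 0.43 without control replicate 1. The control mean of 4.77 was under the limit, so Klf15 was tested only through its level on the Myc-depleted arrays. The 3 probe sets of Klf17, a gene of early embryos, stayed between 3.48 and 4.77 and were not tested.

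The 22 tested Sox probe sets differed by -0.32 to 0.75. Sox5, a SoxD factor that lacks an activation domain of its own and acts with Sox9 in cartilage, had 4 tested probe sets, all with a positive difference, from 0.21 to 0.68. The one with the smallest p read 6.56 and 6.44 in Myc-depleted cells, against 5.81 and 5.82 in control cells. The difference was 0.68 (SE 0.12), a 1.60-fold higher level (unadjusted p = 0.00415, adjusted p = 0.338 in limma, and adjusted p = 0.0177 with the spike-in covariate). A second read 6.86 and 6.68 in Myc-depleted cells, against 6.26 and 6.44 in control cells (difference 0.42, unadjusted p = 0.0415, adjusted p = 0.476 in limma). On the brightest, the groups overlapped, at 6.75 and 6.97 in Myc-depleted cells, against 6.85 and 6.45 in control cells. The other 3 probe sets of Sox5 were under the limit and not tested, and differed by -0.21, 0.03 and -0.20. The remaining SoxD genes were Sox13, with a difference of 0.11, and Sox6, whose 4 probe sets were under the limit at 3.65 to 5.11.

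Sox12, a SoxC factor of the embryonic nervous system and mesenchyme, had 2 tested probe sets. The brighter read 7.46 and 7.23 in Myc-depleted cells, against 6.78 and 7.01 in control cells. The groups did not overlap, and the difference was 0.45 (SE 0.16, unadjusted p = 0.0450, adjusted p = 0.488 in limma). The dimmer read 5.68 and 5.27 in Myc-depleted cells, against 4.78 and 4.68 in control cells, a difference of 0.75 (SE 0.18, unadjusted p = 0.0152, adjusted p = 0.392 in limma). Here the control mean of 4.73 was under the limit, so this probe set was tested only through its level on the Myc-depleted arrays. With the spike-in covariate the adjusted p was 0.0498 and 0.0290.

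Sox4, a SoxC factor of progenitor cells in many tissues, had 7 tested probe sets with differences from -0.32 to 0.15. Its brightest read 11.83 and 11.85 in Myc-depleted cells, against 11.82 and 11.69 in control cells, a difference of 0.08 (SE 0.12, adjusted p = 0.890 in limma). Another Sox4 probe set varied more than any other member, with 4.68 and 7.37 in Myc-depleted cells, against 7.54 and 5.15 in control cells. It was high on the 2 arrays with a low spike-in difference and low on the others, whatever their group. The group difference of -0.32 (SE 1.28) was therefore not resolved there, and the part of labelling in it was not tested. The 6 probe sets of Sox11, the other SoxC gene, were all under the limit, between 3.80 and 4.99.

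**Figure D3:**
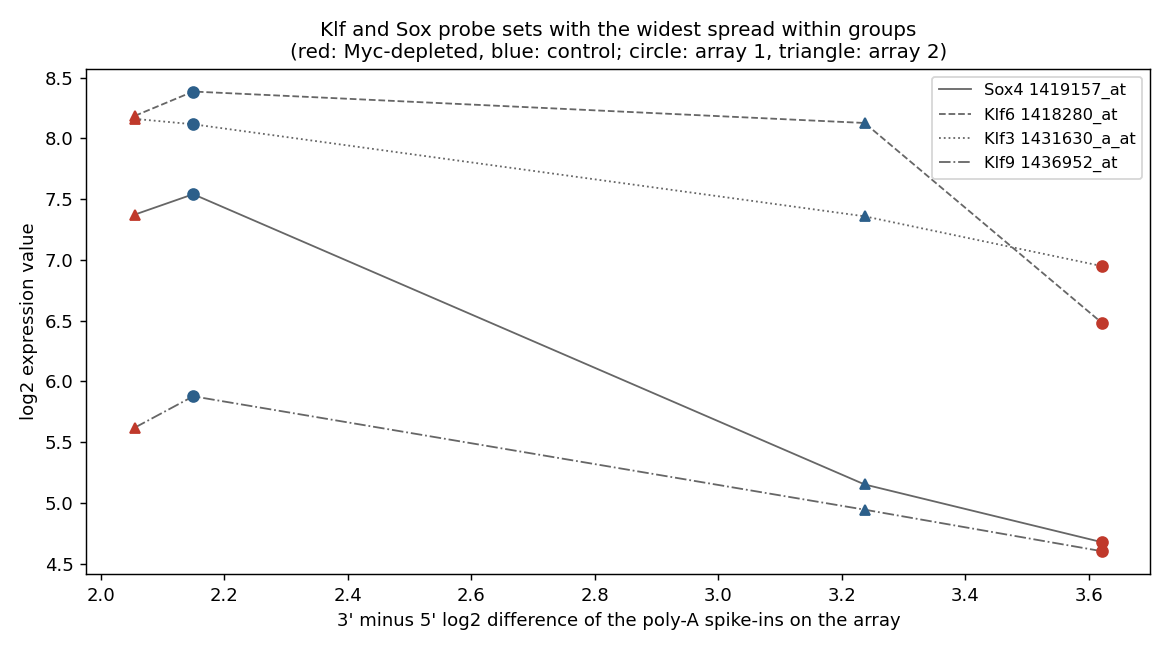
Log2 expression value (y axis) of the 4 tested member probe sets with the widest spread within groups, against the log2 spike-in difference of the same array, 3′ less 5′ (x axis), with Myc-depleted in red and control in blue. The Sox4 probe set lies at 7.37 and 7.54 on the arrays with spike-in differences of 2.05 and 2.15, and at 4.68 and 5.15 on those with 3.62 and 3.24.

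Klf3, Klf6 and Klf9 each had a probe set that also read lower on the array of each group with the higher spike-in difference. That of Klf3 read 6.95 and 8.16 in Myc-depleted cells, against 8.12 and 7.36 in control cells. That of Klf9 read 4.60 and 5.62 in Myc-depleted cells, against 5.88 and 4.94 in control cells. The part of labelling in these values was not tested either. The tested probe sets of Klf13 ran the other way, with 8.32 and 7.45 on the brightest in Myc-depleted cells, against 7.77 and 8.72 in control cells. So did all other tested probe sets of Klf9, and some of Klf3, Klf6 and Sox4. An example of Klf9 read 11.01 and 10.15 in Myc-depleted cells, against 10.65 and 11.07 in control cells.

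Sox9, the SoxE factor of cartilage and of the distal lung tip, was read by 3 probe sets with differences of 0.55, 0.26 and 0.01. The brightest read 8.62 and 7.71 in Myc-depleted cells, against 7.45 and 7.79 in control cells. Only Myc-depleted 1 stood above the others, and the difference of 0.55 (SE 0.36, adjusted p = 0.692 in limma) was 0.09 without it. On the second, both Myc-depleted arrays lay above both controls, with 6.999 and 6.979 in Myc-depleted cells, against 6.64 and 6.81 in control cells (adjusted p = 0.586 in limma). Sox10, a factor of neural crest and glia, differed by 0.10 and -0.04 on its 2 tested probe sets, and the single probe set of Sox8 was under the limit. Of 4 Schwann and neural crest genes read beside them, 3 were under the limit, and the summed log2 level was 19.8 to 20.2 on the Myc-depleted arrays and 19.0 to 19.1 on the control arrays. S100b, a calcium-binding protein of glia, differed by 0.77 (unadjusted p = 0.00332 in limma), and its part in the Sox values was not tested. Its control mean of 4.90 was under the limit, so it was tested only through its level on the Myc-depleted arrays. The genes under the limit, Erbb3, Foxd3 and Ngfr, differed by 0.02, 0.13 and 0.03, so the summed difference rests mostly on S100b.

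Sox2, the reprogramming and airway factor, read 3.57 and 3.60 in Myc-depleted cells, against 3.89 and 3.78 in control cells. These values were under the limit, and a difference was not assessed. The partners in pluripotency Pou5f1, the gene of Oct4, and Nanog were under the limit too. Of the other SoxB genes, Sox3, Sox14 and Sox21 differed by 0.06, -0.03 and 0.06 on their tested probe sets, and Sox1 was under the limit. The 5 probe sets of the SoxF genes Sox7, Sox17 and Sox18, factors of endothelium and, for Sox17, of endoderm, were under the limit at 3.91 to 5.17, as were Sox15 and the testis gene Sox30.

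As families, the Klf genes were spread over both directions and the Sox genes lay mostly just above 0. By 1 probe set a gene, 6 of 14 Klf genes lay above 0 and 8 below, with a median difference of -0.14. For Sox 8 of 9 lay above 0, with a median of 0.10. Over all 12589 genes tested 54.0% were higher and 46.0% lower, and the median was 0.02. An unadjusted p under 0.05 was reached by 5 of the 23 genes, or 21.7%, beside 12.2% of all genes. Of these 3 were higher (6.96% of all genes) and 2 lower (5.23%). They include Klf12 and Klf15, which were tested only through the group where they read higher. Groups without overlap were found for 10 of the 23, or 43.5%, beside 47.5% of all genes. By probe sets, 27 of 35 for Klf lay below 0 and 18 of 22 for Sox above 0, beside 50.5% below and 49.5% above over all probe sets, although probe sets of 1 gene are not independent. Of the 57 tested probe sets, 24 turned direction when 1 array was left out, 13 for Klf and 11 for Sox. They include 5 of the 6 for Klf3, 5 of the 6 for Klf9 and 5 of the 7 for Sox4. The Klf median depended on the arrays: it was 0.27 for Myc-depleted 1 minus control 1, -0.09 for Myc-depleted 1 minus control 2, -0.11 for Myc-depleted 2 minus control 1 and -0.74 for Myc-depleted 2 minus control 2. The same 4 medians for Sox were 0.00, 0.15, 0.11 and 0.14.

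**Figure D4:**
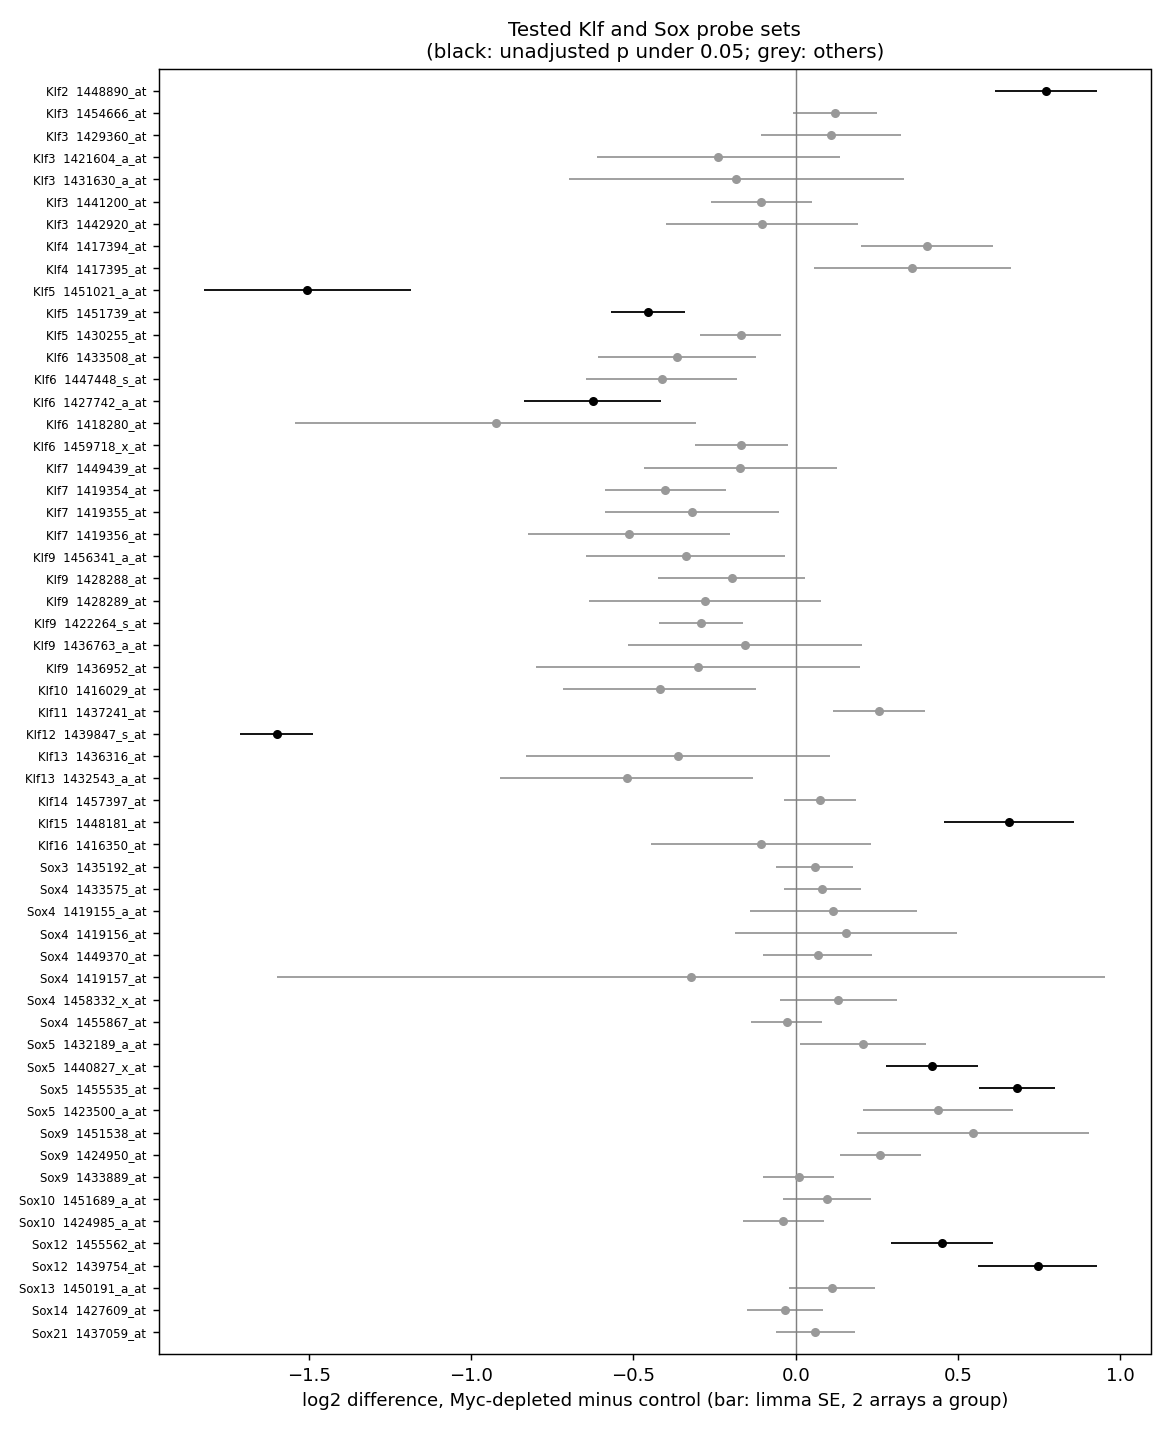
Log2 difference, Myc-depleted minus control (x axis, with the limma SE as bars), of the 57 tested probe sets (y axis), in black where the unadjusted p was under 0.05. Klf12 and Klf5 lie lowest at -1.60 and -1.50, and Klf2 and Sox12 highest at 0.77 and 0.75.

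The 40 member probe sets that were not tested had values between 3.48 and 5.24 and leave 12 of the 35 genes without a tested probe set. Their differences ran from -0.94 for Klf12 to 0.29 for Klf17. The highest mean among them was 5.05 and the lowest among the tested members was 5.10.

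Genes that work with the families were read from lists. Of the 9 Sp factors, which share the zinc fingers of the Klf proteins, 6 were tested and 5 were lower (median -0.24), and the limb gene Sp8 read 5.86 and 6.27 in Myc-depleted cells, against 6.85 and 6.73 in control cells (difference -0.72, unadjusted p = 0.0178, adjusted p = 0.401 in limma). Of 15 cofactors and modifiers 8 were higher and 7 lower (median 0.01). The corepressors Tle1 (-0.57) and Ctbp2 (-0.42) had unadjusted p of 0.0131 and 0.0249 in limma. The 4 tested genes upstream of Klf2 and Klf4, the kinases Map2k5 and Mapk7 and the factors Mef2a and Mef2d, had a median of -0.03 and 0 with an unadjusted p under 0.05.

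Target genes were read in the same way. Of 8 endothelial targets of Klf2 or SoxF factors, a list that holds Klf2 itself, 4 were tested. Thbd, the thrombin receptor thrombomodulin, was higher by 0.66 (unadjusted p = 0.0343 in limma) and the endothelial gene Plvap by 0.54 (unadjusted p = 0.0153), while the adhesion gene Vcam1 differed by -0.77 (unadjusted p = 0.0832). The endothelial markers Pecam1, Cdh5 and Vwf were under the limit on all 4 arrays, and the summed log2 level of the 8 endothelial markers was 35.0 to 35.2 on the Myc-depleted arrays and 34.4 to 34.8 on the control arrays. That summed difference rests mostly on genes under the limit, with 0.20 for Vwf, 0.10 for Tek and -0.08 for Pecam1. Kdr, the only marker tested, differed by 0.08 with overlapping groups (unadjusted p = 0.667 in limma). Of the 6 tested cartilage targets of Sox9, 5 were lower with a median of -0.16. Of the 3 tested targets of Sox4 and Sox11, 1 was higher. Of the 6 Wnt pathway genes 5 were higher with a median of 0.09. None of these last 3 lists held an unadjusted p under 0.05 in limma.

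Fat cell factors that act with Klf members were the last list. Cebpa, a factor of fat cell differentiation, read 7.95 and 7.31 in Myc-depleted cells, against 6.30 and 6.33 in control cells, and differed by 1.31 (SE 0.25, unadjusted p = 0.00615, adjusted p = 0.350 in limma). Pparg differed by 0.49 (unadjusted p = 0.0244) and its target Fabp4, a fatty acid binding protein, by -0.37 (unadjusted p = 0.0367). Over the 5 genes 4 were higher, with a median of 0.49, and 0 passed the adjusted threshold.

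Promoter sequences were searched for CACGTG, the E-box bound by Myc with its partner Max, since Myc is the depleted factor. RefSeq promoter windows of assembly GRCm38.p6, from 250 bases before to 50 bases after a start site, matched 25 of the 35 genes, with 30 windows. Klf5, Klf10, Klf14, Klf16, Sox3, Sox7, Sox9, Sox10, Sox17 and Sox18 had no window and were not searched. The letters CACGTG, which read the same on both strands, were found in the windows of 5 genes, Klf4, Klf6, Klf11, Klf15 and Sox8. These were 20% of the 25 genes searched, beside 8.09% of all genes. Windows with a match were 16.7% of the member windows, beside 7.15% of all 32851 windows. The Klf motif CACCC, searched on both strands, was in 53.3% of the member windows and 57.5% of all. Klf15 held 3 matches, within the 30-base stretches chr6:90462336-90462365, chr6:90462392-90462421 and chr6:90462561-90462590 on the plus strand. The stretches of Klf4 (chr4:55532640-55532669, minus strand), Klf6 (chr13:5861434-5861463, plus strand) and Klf11 (chr12:24651145-24651174, plus strand) are shown beside them, because these genes were tested on the arrays. Capitals mark CACGTG, and the first base of the match is counted from the start site.
Klf15, from -228: ctcccgaggtccCACGTGgtctgcacttcg
Klf15, from -172: tagaacccgtctCACGTGcgcatcggagga
Klf15, from -3: cgcccgcggcgtCACGTGagcggccggaga
Klf4, from -182: cgcccccgccccCACGTGcgcggagtttgt
Klf6, from -43: ctccaagctggtCACGTGgggggagaaggg
Klf11, from -214: cccggaccaaaaCACGTGccgccgcccgcc
Of these genes, Klf15, Klf4 and Klf11 had positive differences of 0.66, 0.40 and 0.26 by the probe set with the highest mean, and Klf6 a negative one of -0.37. The windows of Klf12, the member with the smallest p, and of Klf2, Sox5 and Sox12 held no match. Binding was not measured, and a match is a description of the letters.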

How the data were processed

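Total RNA of 2 Myc-depleted and 2 control BASC samples was measured on single-colour Affymetrix arrays. The authors deposited log2 expression values, made with Partek Genomics Suite 6.4. The study's methods give Robust Multichip Average as the normalization and the submitters' processing notes GCRMA. It is unknown which applies, and dim probe sets would differ most between them. Of 45101 probe sets 64 were controls and were not tested, and probe sets with a mean over the 4 arrays under the 40th percentile (log2 5.08) were not tested, which left 27022. The study removed values near background by a rule not given in the sources used here. Genes were named from the platform annotation, where 34945 probe sets had 1 symbol, 932 several and 9160 none, and all 97 members matched RefSeq by Entrez identifier. A gene was represented by its tested probe set with the highest mean.

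Differences, Myc-depleted minus control, were fitted with limma 3.58.1 (lmFit and eBayes) in R 4.3.3 over all tested probe sets, with Benjamini-Hochberg adjustment over all of them and a threshold of 0.05. Precision is limited by the 4 arrays. The fit left 2 residual degrees of freedom and a prior of 2.02. An exact permutation test of 2 against 2 arrays cannot pass 0.05, and none was used. Members, lists and tests were chosen with earlier results of these data known. Values on each array are given for members with an unadjusted p under 0.05, over 2-fold different, or of known role in pluripotency or lung, and for others chosen after their values were seen, to describe the spread. Of each list, members of smallest p are named. Alternatives covered the filter, scaling, floor, variance model, an ordinary ANOVA (named in the methods of the study), the replicate number as a block, a spike-in covariate and each array left out. Spike-in values are the mean over the DapX, LysX, PheX and ThrX controls. Protein sequences were not used here.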

Additional observations from a re-analysis of the deposited data

How the results depend on the processing

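The count of members past the adjusted threshold was 0 under every alternative except the spike-in covariate, which gave 10 (Klf2, Klf10, Klf12, Klf13, Klf15, 2 probe sets of Klf5, 1 of Sox5 and 2 of Sox12). The count of members with an unadjusted p under 0.05, 10 in the reported fit, was 5 with the 60th percentile filter, 4 in an ordinary ANOVA, 5 with the replicate number as a block, 26 with the spike-in covariate, 2 with a fold over 2 as well, and 4 to 15 with 1 array left out (4 without control replicate 1, 5 without control replicate 2). Same-numbered arrays of the groups deviated in opposite directions (correlation -0.77 over tested probe sets), and crossed pairs, an alternative chosen after seeing the data, gave 23 with 0 past the adjusted threshold. Crossed pairs put Myc-depleted 1 with control 2, and so split each group as the spike-in difference does. With them the adjusted p in limma was 0.0533 for Klf12, 0.0992 for the brightest of Klf5, 0.109 for Klf2 and 0.113 for Klf15. Over all probe sets, 0 were called in the reported fit, 0 with the replicate block, 21 with crossed pairs and 2819 with the covariate, the last 3 with 1 residual degree of freedom. Myc kept its direction throughout, between -1.26 and -0.79 with 1 array left out, and passed with the covariate at -1.03 (adjusted p = 0.0216). The Klf median was -0.44 to 0.12 with 1 array left out, above 0 without control replicate 2 (0.12) or Myc-depleted replicate 2 (0.07), and 0.27 and -0.74 in the single comparisons of like-numbered arrays. The Sox median was 0.0182 to 0.15 with 1 array left out, 0.21 with the 60th percentile filter and 0.0003 for Myc-depleted 1 minus control 1. Of the 57 tested probe sets 33 kept their direction with each array left out, and 24 did not, among them the brightest of Klf9 (-0.73 to 0.05), the brightest of Klf13 (-0.84 to 0.11) and the widest of Sox4 (-1.67 to 1.03). Of the 16 tested probe sets with an unadjusted p under 0.05 or of Klf2, Klf4, Klf5 or Sox9, 15 kept it in all alternatives that tested them, and 6 were not tested with the 60th percentile filter. The exception was the dimmest of Sox9, at 0.01 in the reported fit and between -0.00968 (without control replicate 2) and 0.0275 with 1 array left out. For the changes between settings the cause was not tested. Low signal over background limits the 40 members under the limit.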
